A study of Strongylocentrotus purpuratus and Patiria miniata with 14 samples.

Results

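The neighbourhood of hedgehog in the bat sea star, *Patiria miniata*, was described here as a series of accessible chromatin regions across early development. The members are all ATAC-seq peaks of the 6 sea star libraries that overlap bases 630000 to 750000 of scaffold NW_024037060.1 in the Pmin_3.0 assembly, a window of 120 kb placed around hedgehog from the study's browser view of the gene. They were 183 of the 371693 peaks of the 6 libraries. Peaks that overlapped by at least 1 bp, in the same or another library, were joined into 38 clusters of the 105823 in the genome, and the clusters are numbered from 1 to 38 along the scaffold. ATAC-seq (assay for transposase-accessible chromatin) marks DNA that is open enough for a transposase to insert sequencing adapters, and a peak is a stretch where such insertions exceed the local background. Each library came from whole wild-type (WT) embryos grown at 15 °C and collected at 24, 66 or 90 h post fertilization (hpf), which the study names mesenchyme blastula, late gastrula and bipinnaria larva. There were 2 replicates at each stage. Nothing in the labels says that 2 replicates were independent cultures, and their spread may therefore be technical only.

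Hedgehog is a secreted signalling protein that patterns embryos across bilaterian animals. It binds its receptor Patched, which releases Smoothened from inhibition and so lets Gli transcription factors reach their target genes. In sea urchin embryos, where the pathway has been studied most among echinoderms, hedgehog is transcribed in the endoderm and its signal is received by the neighbouring mesoderm. Developmental genes of this kind are typically surrounded by several cis-regulatory elements, and open chromatin is widely used as a proxy for these. The signal came from whole embryos, so a region open in few cells and a region weakly open in many cells cannot be told apart. No gene models of this assembly were used. That hedgehog lies inside the window was therefore taken as given and not checked. An inset of the study's browser view carries the name of another scaffold, so the values are those of this window whether or not it holds the gene. The clusters are given by position and were not assigned to a promoter, exon or intron of hedgehog or of its neighbours.

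Each cluster carries a fold enrichment in each library, which is the signal at the summit over the local background as the peak caller gave it. To set libraries beside each other, each cluster also carries a rank, which is the share of the peaks in that library's own list that were at least as strong by −log10 p. A low rank is therefore strong and a high one weak. The 6 lists held between 56044 and 72079 peaks, and the weakest q accepted in any of them lay between 0.0151 and 0.0484. Read totals were not used here. The lists had 29 to 32 peaks in the window, which fell into 27 to 31 clusters each, and their median fold enrichment there was 5.27 to 6.68 against 4.98 to 5.59 over the whole lists.

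The commonest pattern in the hedgehog neighbourhood was a cluster called throughout. Of the 38 clusters, 22 (57.9%) were called in all 6 libraries, against 27.5% of all sea star clusters, and 25 (65.8%) were called at every stage, against 41.1%. Clusters tied to one side of development were fewer. Only 2 (5.26%) were called at 24 hpf and never later, against 14.5% genome-wide, and 7 (18.4%) were called only after 24 hpf, against 33.4%. Where peaks were joined only if they overlapped by 50% of both, there were 49 clusters, of which 21 were called in all 6 libraries, 6 at 24 hpf alone and 15 only later. Genome shares under that rule are not given, so the contrast with the genome is shown for the main joining only. The remaining 4 of the 38 were called at 24 hpf and at a single later stage, 2 of them at 24 and 90 hpf but not at 66 hpf, which held for 6.30% of all clusters. Just 4 clusters (10.5%) rested on 1 library, against 29.9%. The rest of the same scaffold, with 1816 clusters outside the window, resembled the genome rather than the window. There 28.4% of clusters were called in all 6 libraries, 13.4% at 24 hpf alone and 31.9% only later. No test accompanies these shares, since neighbouring clusters are not replicates of a condition.

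**Figure D1:**
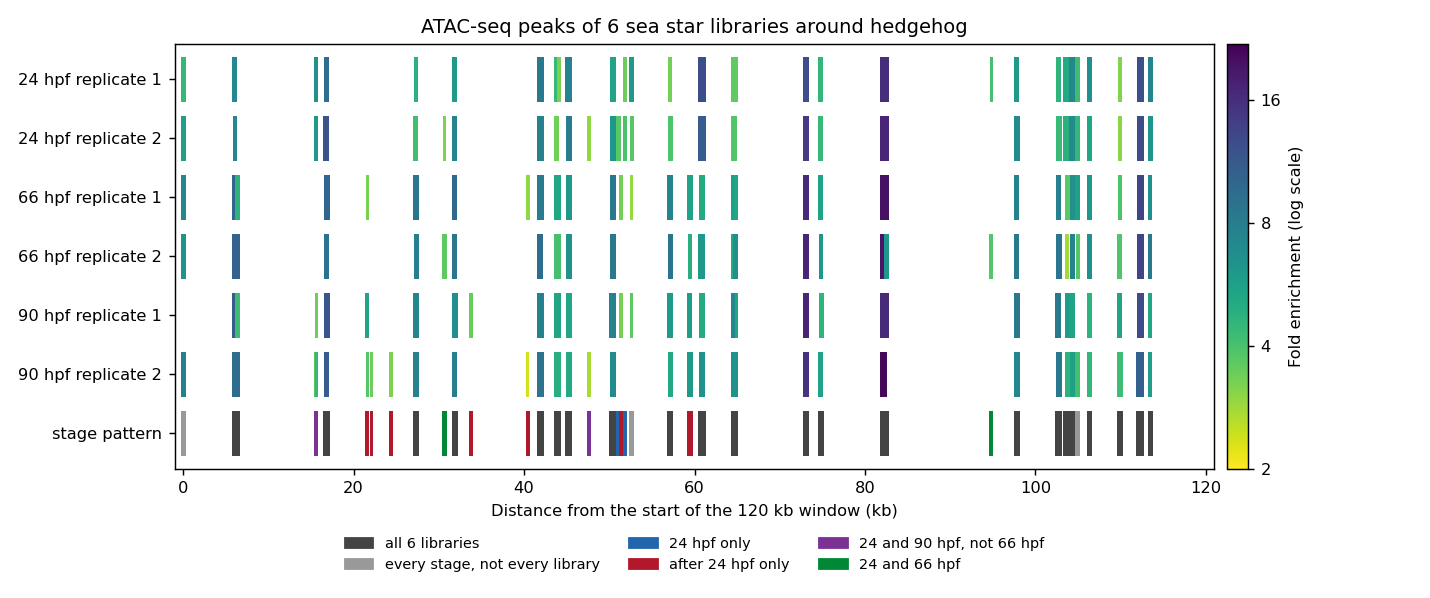
Peaks of the 6 libraries along the window, as distance from its start in kb, coloured by fold enrichment on a log scale; the bottom row gives the stage pattern of each of the 38 clusters; bars are drawn slightly wider than the peaks so that they can be seen. The 2 clusters called at 24 hpf alone and the 7 called only after it all lie in the left part of the map, and the darkest column, cluster 28, is present in all 6 libraries.

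The clusters covered 14079 bp, or 11.7% of the window's length, counting the part of cluster 1 that lies before the window's start. Replicates of a stage shared more of their clusters here than elsewhere. Of the clusters called in either replicate, both replicates called 27 of 31 (87.1%) at 24 hpf, 25 of 31 (80.6%) at 66 hpf and 25 of 34 (73.5%) at 90 hpf. The same shares over the genome were 64.5%, 64.5% and 62.5%. The 22 clusters called in all libraries count as shared at every stage, so these shares are not separate from the high share of constant clusters. A stricter criterion was a cap of 0.1 on the irreproducible discovery rate (IDR) between the replicates. Of the regions joined from peaks of both replicates, 20 of 27 (74.1%) met it at 24 hpf, 24 of 26 (92.3%) at 66 hpf and 23 of 25 (92%) at 90 hpf, against 65.7%, 63.7% and 65.4% over the genome. These regions lay in 20, 23 and 23 clusters. The criterion was met at all 3 stages by 17 clusters, every one of them among the 22 called in all libraries. The other 5 were clusters 8, 14, 22 and 25, which missed it at 24 hpf with an IDR of 0.126, 0.232, 0.215 and 0.14, and cluster 32, which missed it at 66 hpf with an IDR of 0.321.

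The 22 constant clusters were stronger and wider than the others, a contrast that the grouping itself favours. A width runs over the peaks of all libraries in a cluster, so further libraries can only widen it. A call in every list likewise favours strong peaks. Their median fold enrichment was 7.06, with a range of 2.8 to 21.2, and their median width was 465 bp. The other 16 clusters had a median of 3.8, a range of 2.36 to 7.87 and a median width of 216 bp. Their median ranks were 23.4% and 61.6%. The clusters missing from some libraries were thus mostly weak where they were called, and whether they were open but under the caller's threshold in the other libraries was not tested.

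Cluster 28, at bases 711936 to 712698, was the most enriched cluster of the neighbourhood in 5 of the 6 libraries. Its fold enrichment was 16.0 and 17.2 at 24 hpf, 19.7 and 19.2 at 66 hpf, and 16.5 and 21.2 at 90 hpf, and its ranks ran from 0.112% to 1.46%. The stages overlapped, and all 6 summits fell between bases 712150 and 712164. In replicate 1 at 90 hpf the highest value belonged instead to cluster 26, at bases 702907 to 703260, though by a small margin. Cluster 26 read 12.5 and 14.5 at 24 hpf, 16.6 and 17.1 at 66 hpf, and 17.1 and 15.6 at 90 hpf. Its fold enrichments at 24 hpf lay below all later ones, but its ranks of 7.61% and 3.45% overlapped the later 1.28% to 4.15%. Of all constant clusters, cluster 26 kept its position most sharply, with its 6 summits within 6 bp.

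Cluster 37, at bases 742006 to 742584, completed the set of very strong regions. It read 12.4 and 12.7 at 24 hpf, 13.6 and 13.4 at 66 hpf, and 12.7 and 10.6 at 90 hpf, with ranks of 1.2% to 5.39% that overlapped between stages. Cluster 4, at bases 646586 to 647047, had a fold enrichment of at least 9 throughout, with 9.55 and 11.9, then 10.1 and 9.00, then 11.8 and 10.9 at the 3 stages in turn. Its stages overlapped as well, and the ratio of its later mean to its 24 hpf mean was 0.977.

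Clusters 10, 30 and 38 were the other constant clusters with no ordered difference between 24 hpf and later ranks. Cluster 10, at bases 661691 to 662045, ranged from 6.09 to 9.79. Cluster 30, at bases 727610 to 728003, ranged from 6.08 to 8.47, and cluster 38, at bases 743311 to 743599, from 5.33 to 8.32. Together with clusters 4, 26, 28 and 37 these made 7 clusters whose 24 hpf ranks overlapped those of the later libraries.

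**Figure D2:**
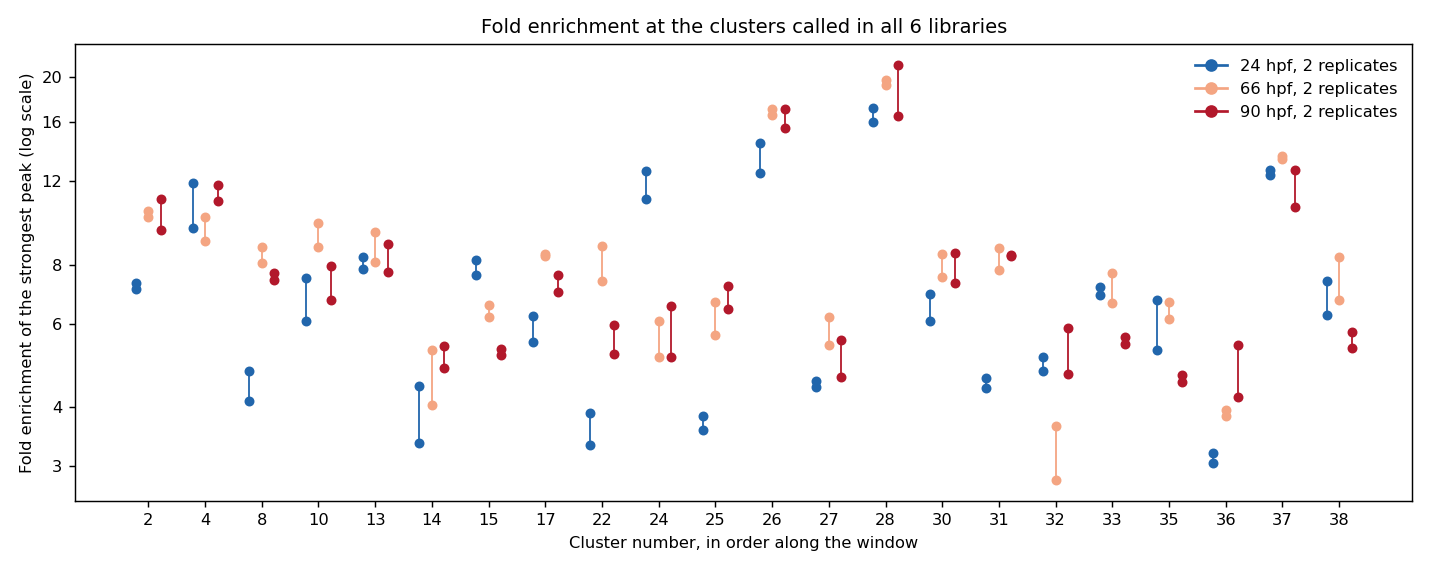
Fold enrichment of the strongest peak on a log scale at each of the 22 clusters called in all 6 libraries, in order along the window, with 2 points per stage joined by a line; colours mark 24, 66 and 90 hpf. Clusters 26, 28 and 37 stand above 10 in every library, clusters 8, 22, 25 and 31 are low at 24 hpf, and cluster 24 is high at 24 hpf only.

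A larger group of constant clusters ranked lower at 24 hpf than afterwards. In 10 of the 22 (45.5%) both 24 hpf ranks were weaker than all 4 later ranks, against 19.2% of the 29123 sea star clusters called in all libraries. Ranked by fold enrichment in place of −log10 p, the count was 9 (40.9%), against 18.9%, and 8 clusters were in both counts. With 2 libraries against 4 there are only 15 ways to split them, so the smallest one-sided p of an exact permutation test is 0.0667 and no single cluster can pass 0.05. The clusters are therefore described by whether the groups overlap.

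Cluster 22, at bases 686931 to 687373, had the largest ratio of later to earlier signal. Its fold enrichment was 3.32 and 3.89 at 24 hpf, 7.39 and 8.75 at 66 hpf, and 5.97 and 5.17 at 90 hpf, so that the later mean was 1.89 times the earlier one. It stood highest at late gastrula, and its ranks went from 75.3% and 54.1% to 20.7% and 15.0%, then to 26.0% and 31.4%. Cluster 31, at bases 732458 to 732971, read 4.61 and 4.38 at 24 hpf against 7.80, 8.67, 8.38 and 8.36 later, a ratio of 1.85. Its later replicates lay close together and far from the early pair.

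Cluster 8, at bases 657121 to 657543, read 4.77 and 4.12 at 24 hpf, then 8.72 and 8.07, then 7.42 and 7.69, a ratio of 1.79. Its summits also differed in position, within a spread of 82 bp that was close to the median of 83 bp for constant clusters genome-wide. They were at 657254 and 657241 at 24 hpf and between 657311 and 657323 in the 4 later libraries. Cluster 25, at bases 694446 to 695007, read 3.58 and 3.83 at 24 hpf, 5.67 and 6.68 at 66 hpf, and 7.21 and 6.45 at 90 hpf, a ratio of 1.76. The 6 summits of its strongest peaks were spread over 309 bp, but it held 2 peaks in every library except replicate 2 at 90 hpf. In replicate 2 at 24 hpf and replicate 2 at 66 hpf the right-hand peak was the stronger, with summits at 694752 and 694812. The left-hand peaks of those libraries had summits at 694549 and 694504, within the 694503 to 694611 of the other libraries.

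Cluster 2, at bases 635891 to 636542, read 7.12 and 7.32 at 24 hpf, 10.1 and 10.4 at 66 hpf, and 11.0 and 9.45 at 90 hpf. More bases were also called later, with 299 and 249 at 24 hpf against 537, 576, 513 and 622. In replicate 1 of both later stages, part of these came from a separate second peak, with summits at 636400 and 636412. The main peak there ended at 636194 and 636208, near the 636189 and 636187 of 24 hpf. In replicate 2 of both later stages a single peak covered the whole stretch. Cluster 17, at bases 680169 to 680682, read 5.49 and 6.22 at 24 hpf against 8.41, 8.33, 7.60 and 7.01 later. Cluster 36, at bases 739744 to 740075, was the weakest of the group at 24 hpf, with 3.19 and 3.04, then 3.94 and 3.83, then 5.40 and 4.20. Its ranks of 62.8% and 59.9%, then 54.3% and 56.7%, then 23.5% and 34.4% placed most of its difference at the larva.

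The last members of this group differed little. Cluster 27, at bases 704624 to 705014, read 4.54 and 4.41 at 24 hpf against 4.62 to 6.21 later. Clusters 13 and 14 were ordered by −log10 p but not by fold enrichment. Cluster 13, at bases 671636 to 672157, read 8.32 and 7.85 at 24 hpf, within the later 7.72 to 9.40, and its ranks were 13.1% and 14.3% against 5.41% to 10.3%. Cluster 14, at bases 673606 to 674209, read 4.42 and 3.35 at 24 hpf and 4.04 to 5.37 later, and its order rested on a rank of 41.5% at 24 hpf against 41.4% in replicate 2 at 66 hpf.

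The opposite order was seen in fewer clusters, and how its share compared with the genome depended on the ranking. In 5 of the 22 clusters (22.7%, against 18.9%) both 24 hpf ranks were stronger than all later ranks. Ranked by fold enrichment, 2 remained (9.09%, against 17.3%), and both were among the 5. Cluster 24, at bases 690564 to 691173, was the clearer one. It read 12.6 and 11.0 at 24 hpf, 5.09 and 6.08 at 66 hpf, and 5.09 and 6.55 at 90 hpf, with ranks of 3.39% and 5.37% against 18.2% to 37.4%. The later mean was 0.484 of the earlier one. In replicate 1 of the mesenchyme blastula only cluster 28 was more enriched, though clusters 26 and 37 were close at 12.5 and 12.4. In replicate 2 clusters 4, 26, 28 and 37 were all more enriched, at 11.9, 14.5, 17.2 and 12.7. At later stages cluster 24 lay below the constant clusters' median of 7.06.

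Cluster 15, at bases 675004 to 675471, was the other cluster in both counts. It read 7.60 and 8.18 at 24 hpf, 6.21 and 6.58 at 66 hpf, and 5.30 and 5.16 at 90 hpf, so the stages did not overlap. Clusters 32, 33 and 35 were ordered by −log10 p alone. Cluster 33, at bases 734109 to 734452, had ranks of 9.68% and 8.27% at 24 hpf and of 15.7% to 27.7% later, while its fold enrichment of 7.17 and 6.89 lay within the later 5.44 to 7.69. Cluster 35, at bases 736151 to 736465, ranked at 10.4% and 15.5% at 24 hpf, 22.5% and 19.4% at 66 hpf, and 31.0% and 30.0% at 90 hpf. Its summits lay between 736368 and 736375 at 24 and 66 hpf and at 736268 and 736252 at 90 hpf.

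Cluster 32, at bases 733412 to 733923, dipped at late gastrula. Its fold enrichment was 5.11 and 4.77 at 24 hpf, 3.65 and 2.80 at 66 hpf, and 5.87 and 4.69 at 90 hpf, and its rank at 66 hpf was 58.9% and 91.2%. The order of its ranks was close, with 23.3% in replicate 1 at 24 hpf against 24.7% in replicate 1 at 90 hpf. The called stretch was longer at 24 hpf as well, with 478 and 481 bp against 217, 144, 302 and 275 bp later. Across the 22 clusters the called bases gave no lean to either side. Fewer bases were called at 24 hpf than in any later library in 5 clusters (22.7%, against 14.8%), which were clusters 2, 8, 13, 17 and 22, and more in 5 others (22.7%, against 16.0%), which were clusters 24, 32, 33, 35 and 38. The first of these counts was 9 without replicate 2 at 24 hpf.

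**Figure D3:**
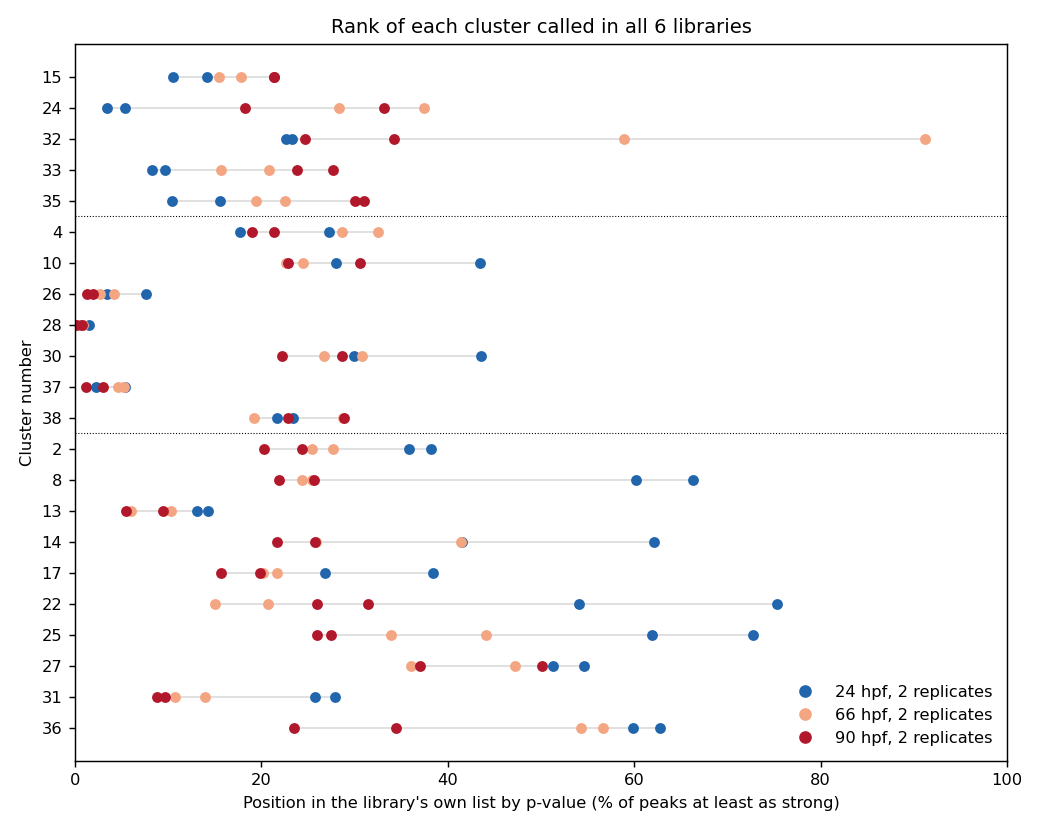
Rank of the strongest peak of each of the 22 constant clusters within its library's own list by p-value, in percent, where 0 is strongest; each cluster has 6 points coloured by stage, joined by a grey line. Dotted lines separate the 5 clusters with both 24 hpf ranks stronger than all later ranks (top), the 7 that overlap and the 10 with both weaker (bottom).

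Clusters called at 24 hpf and not later were few and weak. Cluster 20, at bases 681737 to 681953, was the only one called in both 24 hpf replicates and in no later library (2.63% of the 38, against 3.72%). It read 3.44 and 3.94, with ranks of 82.1% and 59.4%, and its summits at 681875 and 681881 were 6 bp apart. Its IDR was 0.236, so it did not meet the stricter criterion. The other cluster of this pattern, cluster 18 at bases 680981 to 681209, was called in replicate 2 alone, at 3.74. The count of 2 became 1 without replicate 2 at 24 hpf and 4 without replicate 2 at 66 hpf.

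Both early clusters lay in a crowded stretch of 2626 bp that held clusters 17 to 21. It is described because of the early clusters in it, and the clusters other than 17 and 20 were chosen after their values were seen. Cluster 19, at bases 681284 to 681486, lay between the early pair and was called only later, at 3.33 in replicate 1 at 66 hpf and 3.30 in replicate 1 at 90 hpf. Cluster 21, at bases 682459 to 682794, read 6.04 and 3.76 at 24 hpf, 2.92 in replicate 1 at 66 hpf and 3.62 in replicate 1 at 90 hpf, and was not called in the second replicate of either later stage. So a stretch with a constant cluster at its edge had 3 further places where a peak was called at 24 hpf, and none of these was called in both replicates of a later stage.

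Among the clusters called only after 24 hpf, cluster 23, at bases 689254 to 689643, stood out. It was called in all 4 later libraries, at 5.54 and 4.91 at 66 hpf and 5.84 and 6.09 at 90 hpf, with ranks of 24.4% to 43.6%, and in neither library of 24 hpf. Its IDR was 0.0185 at 66 hpf and 0.00105 at 90 hpf, which made it the only cluster called on 1 side of 24 hpf alone to meet the criterion. It lay between cluster 22, which was also higher later, and cluster 24, which was higher at 24 hpf. Cluster 5, at bases 651446 to 651669, was the other cluster called in both replicates of a later stage. It read 5.46 and 3.80 at 90 hpf and 3.24 in replicate 1 at 66 hpf, where its rank of 99.8% put it at the foot of the list. These 2 clusters made 5.26% of the 38, against 11.3% genome-wide. The remaining 5 were called in 1 or 2 libraries at 2.36 to 3.5.

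Cluster 3 was unusual in its pattern and was singled out after its values were seen. At bases 645464 to 645717, it read 6.61 and 6.13 at 24 hpf, was called in neither library of 66 hpf, and read 3.43 and 4.44 at 90 hpf. It was the only cluster of the window called in both replicates of the blastula and of the larva and in none of the late gastrula. Its ranks were 46.1% and 48.4% at 24 hpf against 98.1% and 76.5% at 90 hpf. Its IDR of 0.0299 met the criterion at 24 hpf, and that of 0.265 at 90 hpf did not.

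The constant clusters were closely but unevenly spaced. The 21 gaps between neighbouring summits had a median of 3798 bp, against 7812 bp over the genome, where the quartiles were 2784 and 19968 bp. The shortest gap, 586 bp, separated clusters 32 and 33, and the longest, 15624 bp, clusters 28 and 30. Of the gaps, 6 were under 2 kb and 8 over 5 kb. The largest gap thus followed directly on the strongest cluster. Within it, the 12010 bp between clusters 28 and 29 formed the longest stretch of the window without a peak in any library. The next longest were 8921 bp between clusters 2 and 3, 7899 bp between clusters 25 and 26, and 6921 bp between clusters 27 and 28. No peak was called from base 743600 to the end of the window, over 6401 bp. The lists do not say whether reads could be mapped in these stretches.

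**Figure D4:**
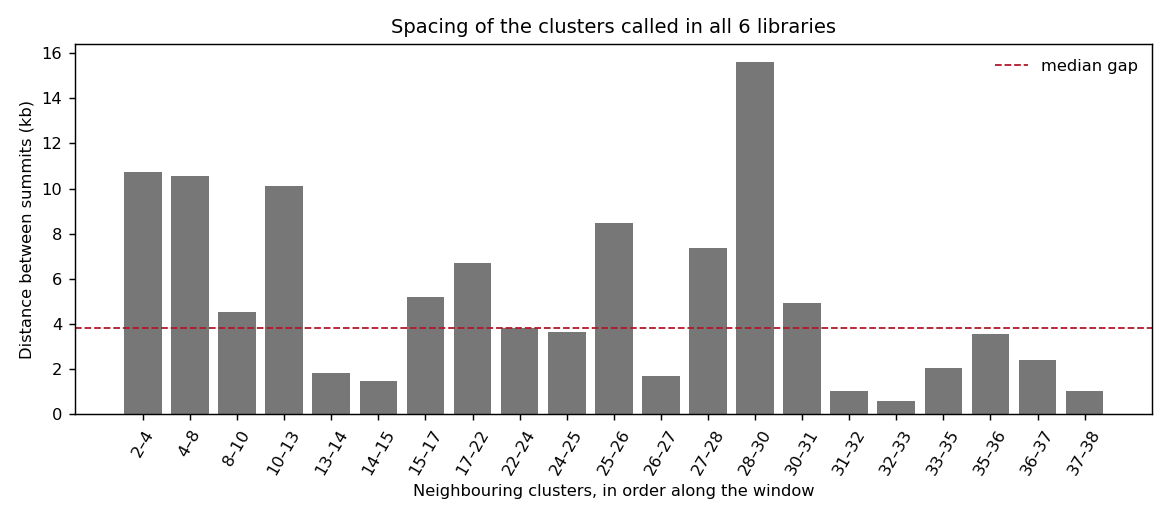
Distance in kb between the median summits of neighbouring clusters called in all 6 libraries, in order along the window; the dashed line is the median. The gap between clusters 28 and 30 is the tallest bar at 15624 bp, and the gaps between clusters 31, 32 and 33 are among the shortest.

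The 2 stretches of the window on either side of base 700000 held different mixes of clusters. How often neighbouring stretches of the genome differ as much was not examined, so the counts are description only. Up to base 700000 there were 25 clusters, of which 11 were constant (44%), 2 were called at 24 hpf alone, 7 only later and 5 in other patterns. Beyond it there were 13 clusters, of which 11 were constant (84.6%) and none was restricted to 24 hpf or to later stages. The median gap between constant clusters was 4854 bp in the first stretch and 2223 bp in the second. The clusters with weaker 24 hpf ranks numbered 7 in the first and 3 in the second, and those with stronger ones 2 and 3. In the second stretch, clusters 31 to 35 lay within 4008 bp. Of these, clusters 31, 32, 33 and 35 were constant, and cluster 34, at bases 734816 to 735060, was missed in replicate 1 at 90 hpf alone. Their orders differed between close neighbours. Cluster 31 was weaker at 24 hpf, and clusters 32, 33 and 35 ranked stronger there by −log10 p but not by fold enrichment.

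To set the density of the window beside the genome, the assembly's scaffolds with peaks were divided into 5033 tiles of 120 kb. A tile held a median of 21 clusters, with quartiles of 9 and 31, and 635 tiles (12.6%) held at least 38. Constant clusters were the rarer feature. A tile held a median of 5 of them, with quartiles of 1 and 9, and only 30 tiles (0.596%) held 22 or more. Tiles are fixed intervals, while the window was chosen for a gene whose position was not checked. These shares therefore describe where the window falls and are not a test.

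Positions within the constant clusters were kept to a degree like that of the genome. The spread of the 6 summits had a median of 74.5 bp, against 83 bp genome-wide, and was under 50 bp in 8 clusters and over 100 bp in 8. The tightest after cluster 26 were cluster 38 with 7 bp and cluster 28 with 14 bp. Cluster 33 had summits at either of 2 positions. They were at 734256 and 734254 at 24 hpf and at 734247 in replicate 1 at 90 hpf, and at 734377, 734372 and 734382 in both libraries of 66 hpf and replicate 2 at 90 hpf. The replicates of the larva thus fell on different sides.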

How the data were processed

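ATAC-seq was analysed in 6 of the 14 libraries of the series, 2 replicates at each of 24, 66 and 90 hpf in the sea star. The other 8, of sea urchin, hold no peak of this scaffold and were not used. Per the study's methods, the authors aligned read pairs with Bowtie2, removed duplicates with SAMtools, offset read starts for the transposase, kept nucleosome-free pairs and called peaks with MACS2 in each replicate. The deposited lists give each peak's position and summit, a fold enrichment (a ratio to local background), −log10 p-values and q-values, and a score that is 10 times −log10 q. Coordinates are of Pmin_3.0 and 1-based. The lists hold no read counts, so depth and counting error are unknown.

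Overlapping peaks were joined into clusters, and peaks were ranked by −log10 p within their list. Of several peaks of 1 library in a cluster, the value is that of the strongest. The IDR of replicate pairs was computed with a copula mixture model written for this work (Python 3.11.15, numpy 2.4.6, pandas 2.3.3, scipy 1.17.1), tested on simulated data. No test across clusters was run. Clusters named are those called in all 6 libraries, those called in both replicates of 24 hpf and never later or the reverse, and the most enriched of each stage. The members and these rules were chosen with earlier results of these data known. Alternatives changed the merging, the overlap, the threshold, the list length, the window, the ranking, the replicate rule and the libraries used. No genome sequence of this assembly was used, so no sequences are given.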

Additional observations from a re-analysis of the deposited data

How the results depend on the processing

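The number of clusters (36 to 38) and of constant clusters (22 to 24) and the median gap (3793 to 3803 bp) moved little when 1 library was left out. The counts with stronger 24 hpf ranks ran from 5 to 6 and with weaker ones from 10 to 15, and those called after 24 hpf alone from 5 to 9. A smaller set of libraries asks for fewer calls and fewer ordered ranks, so the constant and ordered counts could hardly fall. The count called at 24 hpf alone ran from 1 to 4. Joining peaks within 100 bp left 1 cluster at 24 hpf alone, because clusters 18 and 19 merged. Joining peaks only where they overlapped by 50% of both gave 6 clusters at 24 hpf alone, 15 only later and a median gap of 3704.5 bp, since shifted peaks then count apart. Whether such clusters stay rarer than in the genome under that rule was not tested. Requiring both replicates of a stage left 1 and 2, and an IDR of at most 0.1 left 0 and 1. Ending the window at 700000 left 25 clusters, 11 constant ones and a median gap of 4854 bp. Ranking by fold enrichment left 2 clusters with stronger 24 hpf ranks. The counts of called bases and the peaks per cluster under these settings were added after seeing the data. No paired analysis was possible because the results come from no test. With every list cut to the same number of top peaks there were 35 clusters, 22 of them constant, 2 at 24 hpf alone and 5 only later. Clusters 6, 7 and 11, each called in 1 library at 90 hpf alone, then had no peak. Cluster 9 kept only its peak at 66 hpf and so counted as later. The lists give no depth, so its part in the calls of weak clusters was not tested.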
